A study of Equus caballus with 4 samples.

Results

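The genes examined are those of the superoxide dismutases (SOD1, SOD2 and SOD3), catalase (CAT) and the copper chaperone of superoxide dismutase (CCS), written below as *sod1*, *sod2*, *sod3*, *cat* and *ccs*. Probes were found for 4 of these 5 genes, and the array carries 14446 gene symbols in all. The members were chosen by name, through the gene symbol that the scanner output gives each probe. The symbols *sod1*, *sod2* and *cat* were found on 12 of the 43603 noncontrol probes, of which 10 carry *sod2*. The gene *ccs* was listed under a provisional symbol and was matched to 1 probe through its RefSeq gene record. No probe was listed for *sod3* under either kind of name, so it was not analysed here. All 13 of these probes passed the filter on dim probes, and each had 1 spot per array, with both channels well above background on 4 of 4 arrays, 0 marked spots and 0 saturated spots.

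Equine satellite cells (ESC), muscle stem cells from the *m. semitendinosus* of stallions in their first year of life, had differentiated until day 3. Cells of the HMB-treated group were incubated for 24 h with 50 µM HMB (β-hydroxy-β-methylbutyrate, a metabolite of leucine) and met 3 mM H2O2 in the last 1 h, while the control group met H2O2 without HMB. Both groups carry the peroxide exposure, and cells without it were not analysed here. Each of 4 horse arrays, all on 1 slide, carried HMB-treated RNA in the Cy5 channel and control RNA in the Cy3 channel. No array had the dyes exchanged, so treatment and dye cannot be told apart. According to the methods 1 best-scoring culture was taken forward, so the 4 replicates need not be 4 horses. The methods state n = 4 for the control cells as for the HMB-treated ones, but in the labels the control is called replicate 1 on each array. If the control RNA were shared after all, the spread between controls would be missing from every error below.

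Superoxide dismutases turn the superoxide radical into hydrogen peroxide and oxygen. The enzyme of *sod1* carries copper and zinc and works mainly in the cytosol, that of *sod2* carries manganese and works in the mitochondrial matrix, and that of *sod3* is secreted. The protein of *ccs* delivers copper to the *sod1* enzyme, and catalase, mostly a peroxisomal enzyme, breaks hydrogen peroxide down to water and oxygen.

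Several *sod2* probes share a place in the genome and differ by a single base. They are shown because the comparison between them bears on whether the ratio depends on that base. Probes have 60 bases and are printed 5′ to 3′ as the files give them, with positions on the EquCab1 build. The capital marks the base in which the probes of a pair differ.
sod2, probe A_69_P000615, chr31:8533066-8533125, plus strand: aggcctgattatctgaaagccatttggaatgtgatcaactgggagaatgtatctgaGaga
sod2, probe A_69_P004150, chr31:8533066-8533125, plus strand: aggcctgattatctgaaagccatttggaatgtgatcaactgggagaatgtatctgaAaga
sod2, probe A_69_P000614, chr31:8533086-8533145, plus strand: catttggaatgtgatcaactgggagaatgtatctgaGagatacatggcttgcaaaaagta
sod2, probe A_69_P004149, chr31:8533086-8533145, plus strand: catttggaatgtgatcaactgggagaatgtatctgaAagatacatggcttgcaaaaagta
The next sequence belongs to the only probe under the symbol *sod2* that lies elsewhere in the gene, upstream of the others. It is shown because its ratio differed from theirs.
sod2, probe A_69_P004151, chr31:8525303-8525362, plus strand: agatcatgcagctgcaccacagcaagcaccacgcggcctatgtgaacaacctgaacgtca
The last sequence is that of the only probe of the copper chaperone, shown because the files list it under a provisional symbol. It covers 166 bases of the genome with its 60 bases, so its place in the files spans a gap.
ccs, probe A_69_P011281, chr12:16953880-16954045, plus strand: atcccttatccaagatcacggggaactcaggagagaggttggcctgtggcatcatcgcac

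HMB-treated cells had several-fold higher *sod2* and slightly lower *sod1* signal than the control cells. The mitochondrial *sod2* rose on all 10 of its probes, by an FC of 5.64 to 10.8, and the cytosolic *sod1* fell on its single probe, by an FC of 1.35. For *cat* an FC of 1.26 toward lower and for *ccs* an FC of 1.23 toward higher values were measured, and neither reached the FC of 1.3 that a call requires. A probe was called when limma's moderated test gave an adjusted p of at most 0.05 (Benjamini-Hochberg over 24669 tested probes) and the FC was at least 1.3, which is 0.38 on the log2 scale. By this rule 11 of the 13 probes were called, but 10 of the 11 measure the same gene, *sod2*. Counted by gene on the brightest probe, *sod2* and *sod1* were called, and *cat* and *ccs* were not. The share called among the 8605 tested symbols, on the brightest probe of each, was 27.4%. Of all tested probes, 28.6% were called, 12.1% as higher and 16.4% as lower in HMB-treated cells, so a single call is not unusual on these arrays. An FC of 5 or more toward higher values was called for 1.54% of the tested probes. This cutoff was not planned and lies below the lowest *sod2* FC of 5.64, so the *sod2* probes had to be among them.

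**Figure D1:**
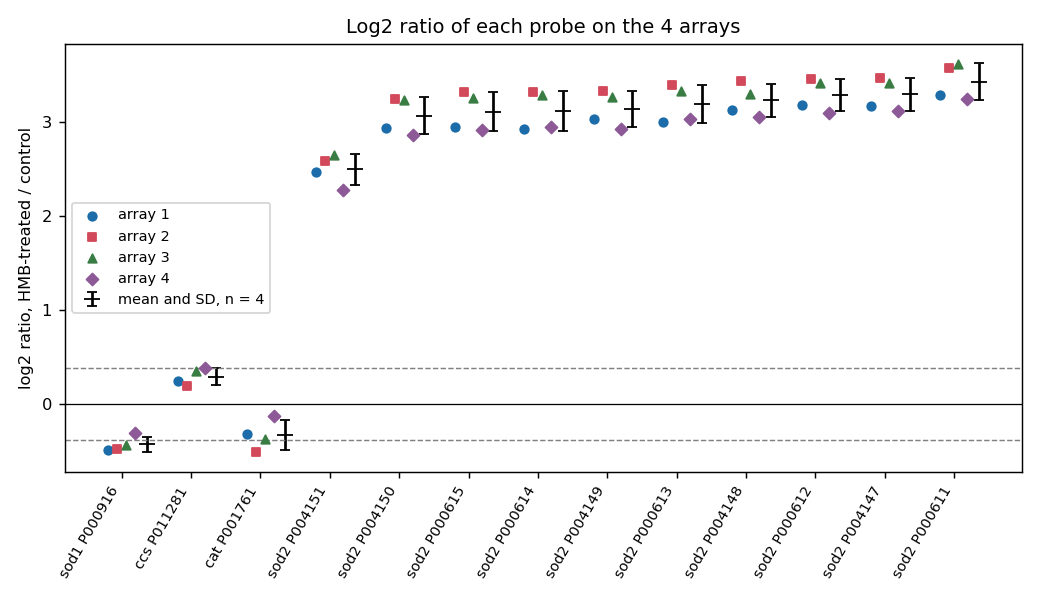
Log2 ratio of HMB-treated over control cells for each probe of *sod1*, *ccs*, *cat* and *sod2*, with 1 marker per array, the mean and SD in black (n = 4) and dashed lines at the FC of 1.3. The *sod2* probes have means from 2.50 to 3.43, whereas the other genes lie within 0.43 of 0.

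The brightest *sod2* probe, A_69_P004150, listed for the accession AY246751, had Cy3 signals in control cells of 1220, 1140, 1530 and 1190 on arrays 1 to 4. On the same arrays, the Cy5 signals of HMB-treated cells were 9390, 10800, 14300 and 8640. The lowest HMB-treated value was 5.65 times the highest control value, and the groups did not overlap. All Cy5 values lay above all Cy3 values in 8.66% of the tested probes. The log2 ratios were 2.94, 3.24, 3.23 and 2.86, a mean of 3.07 ± 0.19 (SD, n = 4), which placed the probe at rank 242 of 24669 by ratio (limma, adjusted p = 3.36e-06).

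**Figure D2:**
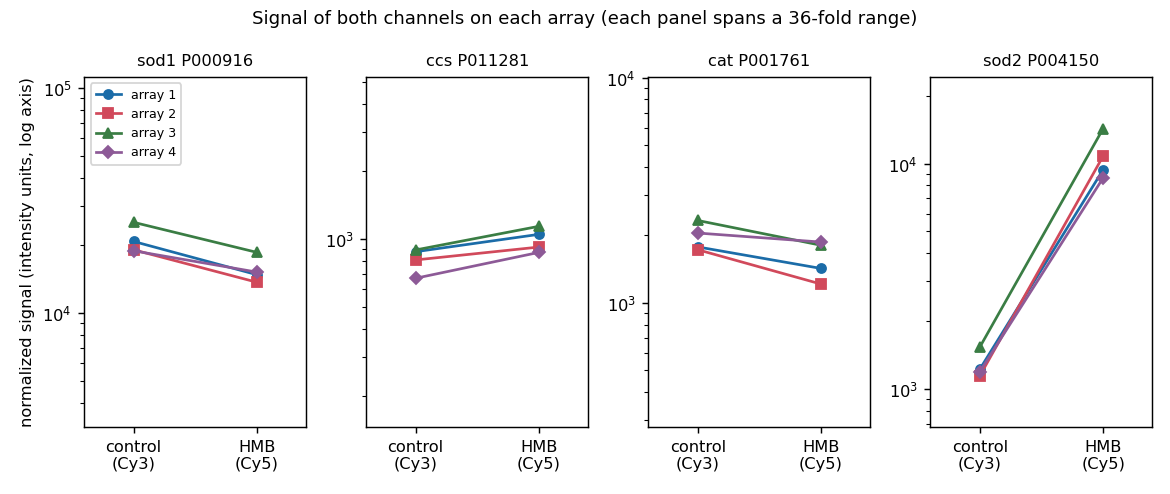
Normalized signal (log axis, arbitrary intensity units) of the control channel and the HMB channel on each array, for the single probe of *sod1*, *ccs* and *cat* and the brightest probe of *sod2*; each line is 1 array and each panel spans the same fold range. The lines of *sod2* rise steeply on all 4 arrays, while those of the other genes are nearly flat.

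The 10 *sod2* probes were called higher without exception, with a median log2 ratio of 3.16 and adjusted p values (limma) from 2.05e-06 to 5.12e-06. Their SD over the arrays was between 0.16 and 0.21. The control signals of these probes ranged from 262 to 1530 and the HMB-treated signals from 1930 to 14300. These probes measure 1 gene and partly overlap, so they are repeated readings of the same RNA and not replicates of the treatment. The median over the probes was 3.02, 3.36, 3.29 and 2.99 on arrays 1 to 4, thus arrays 2 and 3 gave the higher ratios and arrays 1 and 4 the lower ones.

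Of these probes, 9 lie within a stretch of 140 bases. Only 1 of the 3 reading frames of this stretch is free of stops for long, over 26 codons, up to a stop codon (TAA) at chr31:8533144-8533146, so the stretch holds the end of the coding sequence and the start of the part behind it. Means of these 9 probes ran from 3.07 to 3.43, with a median of 3.19. Ordered by position, the lowest ratios were those of A_69_P004150 (3.07) and A_69_P000615 (3.11), which start furthest upstream. The next pair, A_69_P000614 and A_69_P004149, had 3.12 and 3.14, and the pair after it, A_69_P000613 and A_69_P004148, had 3.19 and 3.23. Further along, A_69_P000612 and A_69_P004147 both had 3.29, and the last probe, A_69_P000611, had the highest ratio of the group (3.43 ± 0.19, SD, n = 4). The difference between the first and the last probes was thus larger than the SD of either over the arrays, and all were an FC of at least 8.38.

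The upstream probe A_69_P004151 starts at base 202 of its transcript and lies at -7763 bases from the first probe of the group on the genome. Its control signals were 396, 473, 531 and 396, and its HMB-treated signals 2190, 2820, 3350 and 1930. The log2 ratios were 2.47, 2.58, 2.65 and 2.28, a mean of 2.50 ± 0.16 (SD, n = 4; limma, adjusted p = 5.12e-06). On every array this was the lowest *sod2* ratio, by 0.46, 0.66, 0.57 and 0.58 below the lowest of the other 9 probes. The size of the *sod2* difference therefore depends on the probe, from an FC of 5.64 to 10.8, while its direction was the same on each of them.

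Pairs of probes with a single differing base gave nearly equal ratios. Positions are counted from 1 at the 5′ end of the first probe of each pair. At G57A, the ratio of A_69_P000615 minus that of A_69_P004150 was 0.040 on average, between 0.0061 and 0.081 on the 4 arrays. At G37A, the difference between A_69_P000614 and A_69_P004149 averaged -0.022 (-0.11 to 0.021). At G17A, the difference between A_69_P000613 and A_69_P004148 averaged -0.043 (-0.13 to 0.037). The control signals of this pair were unlike, at 798 to 1080 for A_69_P000613 and 262 to 367 for A_69_P004148. All 3 substitutions fall on the same genome base, 8533122 of chromosome 31, which is the third position of a codon in the open frame. Probes A_69_P000612 and A_69_P004147 have identical sequences, and as a technical repeat they differed by -0.021 to 0.016 with an SD of 0.015. The single-base pairs thus differed by at most 0.13 on any array. The SDs of their differences were 0.032 (G57A), 0.06 (G37A) and 0.07 (G17A), larger than that of the identical pair. At G57A the difference was positive on all 4 arrays, and at the other places its sign varied. Whether the base has a part in these small differences was not tested.

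A further 8 probes carry no gene symbol but bear accessions of *sod2* transcripts; they were picked after the files had been seen. Of these, 3 are listed on the strand of the gene. The probe of JL639864 (A_69_P115596, chr31:8534082-8534138) starts 1016 bases behind the start of the group above. It had control signals of 459 to 599 and HMB-treated signals of 4770 to 6820, and the log2 ratio was 3.41 ± 0.18 (SD, n = 4), with an adjusted p of 2.05e-06 by limma. The probes of AY246759, A_69_P004177 and A_69_P004176, start 2114 and 2134 bases behind, with log2 ratios of 3.16 ± 0.17 and 3.26 ± 0.26 (SD, n = 4; limma, adjusted p = 2.23e-06 and 5.35e-06). The ratio past the coding part thus lay in the range of the group of 9 probes for all 3 probes. Those of AY246759 overlap each other and are not separate places.

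The other 5, of AY246758, are listed on the opposite strand within chr31:8535323-8535386. In the control channel all 5 were not well above background on any array, so that only a bound can be given. The control value of such a bound is, per array, the higher of the lowest signal among probes well above background and the signal of the probe itself. For the bounds, the mean log2 intensity of both channels was first quantile-normalized between arrays. HMB-treated signal was well above background on 4 arrays for A_69_P004171, at least 2.62-fold higher, and for A_69_P004174, at least 2.21-fold higher. These passed the filter on dim probes through the HMB channel alone, so they had to differ, and their p values are not given. For A_69_P004172, A_69_P004173 and A_69_P004175 it was well above background on 3 arrays, which left them out of the fit, and the bounds were 2.00-, 2.18- and 1.69-fold. Control signals were 4.41 to 7.47 and HMB-treated signals 23.1 to 66.4 over these 5 probes, hence they were dim in both groups.

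**Figure D3:**
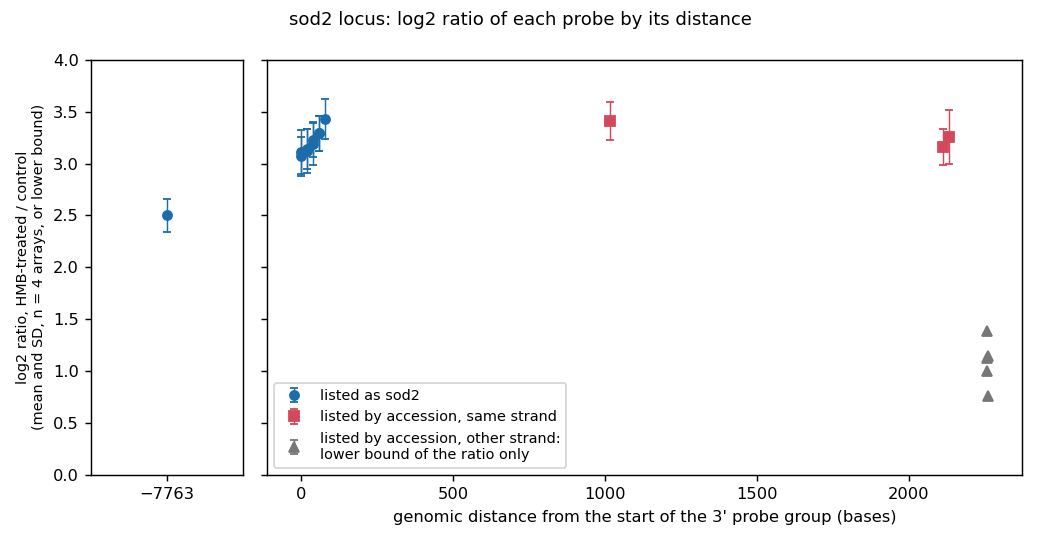
Log2 ratio of HMB-treated over control cells for each *sod2* probe (mean and SD, n = 4 arrays) by its genomic distance in bases from the start of the group of 9 probes; the narrow panel holds the upstream probe at -7763. Probes listed as *sod2* are circles, probes by accession on the same strand squares, and triangles are lower bounds for the probes of the other strand. The upstream probe is lowest of those measured in both channels (2.50), and the probes from 0 to 2134 bases lie between 3.07 and 3.43.

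The cytosolic *sod1*, whose enzyme uses copper and zinc, was measured by A_69_P000916 (chr26:13302343-13302402, listed on the minus strand) at base 368 of its transcript. Its control signals were 20800, 19100, 25300 and 18900, and the HMB-treated signals were 14800, 13700, 18600 and 15200. The HMB-treated values (13700 to 18600) did not overlap with the control values (18900 to 25300), although the nearest values of the groups were close. Such a separation toward lower values was present in 13% of the tested probes. The log2 ratios were -0.49, -0.48, -0.44 and -0.31, a mean of -0.43 ± 0.08 (SD, n = 4; limma, adjusted p = 0.00267), with array 4 closest to 0. With this ratio *sod1* stood at the percentile of 13.9 of all tested probes, and the median probe was at -0.07. The call was lost when the FC of 1.3 was tested directly with limma's treat (adjusted p = 0.951), when the arrays were only centered on their median, with no lowess step (-0.16, adjusted p = 0.15) and after the ratios were corrected for probe GC content (-0.36, adjusted p = 0.00596). Centering moved the median of all probes to 0.07, and relative to the median *sod1* was at -0.36 as reported and at -0.23 after centering.

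The copper chaperone *ccs* was listed as LOC100052693 and measured by A_69_P011281. Control signals were 879, 808, 895 and 670, and HMB-treated signals were 1050, 922, 1140 and 873. The groups overlapped, but on each array the HMB-treated signal was the higher one. The log2 ratios were 0.25, 0.19, 0.35 and 0.38, a mean of 0.29 ± 0.09 (SD, n = 4), with an adjusted p (limma) of 0.0118 and an FC of 1.23, which did not meet the rule for a call. Scaling the arrays to the spike-in RNA, with no lowess step, turned the sign (-0.28), and the median of all probes went from -0.07 to -0.67. Relative to that median *ccs* was 0.36 higher as reported and 0.39 higher with the spike-in scaling.

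Catalase, the peroxisomal enzyme, was measured by A_69_P001761 at base 1729 of its transcript, on a sequence not placed on a chromosome (chrUn:251963968-251964027). Control signals were 1770, 1720, 2320 and 2040, and HMB-treated signals were 1420, 1210, 1800 and 1860. The ranges overlapped, and on each array the HMB-treated signal was the lower one. The same sign on all 4 arrays was found for 61.5% of the tested probes. The log2 ratios were -0.32, -0.51, -0.37 and -0.13, a mean of -0.34 ± 0.16 (SD, n = 4), with an adjusted p (limma) of 0.0147 and an FC of 1.26, so *cat* was not called. Array 4 had the ratio nearest to 0, and without it the mean was -0.40 (adjusted p = 0.0169), which met both thresholds.

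The difference between the mitochondrial and the cytosolic dismutase was similar on the arrays. The ratio of the brightest *sod2* probe minus that of *sod1* was 3.43, 3.72, 3.67 and 3.17 on the log2 scale on arrays 1 to 4. As a difference of ratios within an array it does not change with a scaling of the whole channel. In order of their ratios, *sod2* stood far above *ccs*, and *ccs* was above *cat* and *sod1* on every array, while *cat* and *sod1* were closer to each other than the SD of *cat*.

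The brightest probe of each gene was also followed through the alternative ways of processing. Among 18 alternatives, *sod2* was called in 18, with log2 ratios from 2.52 to 3.26, and *sod1* in 15, from -0.90 to -0.16. By contrast, *cat* was called in 2 and *ccs* in 1. Not all of these alternatives were free to differ from the reported fit. The authors' table holds the same ratios, and the mean over probes is the same single probe for *sod1*, *cat* and *ccs*. The other tests and filters left each ratio as reported and changed only its p values. These counts therefore overstate how many separate checks each call passed.

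**Figure D4:**
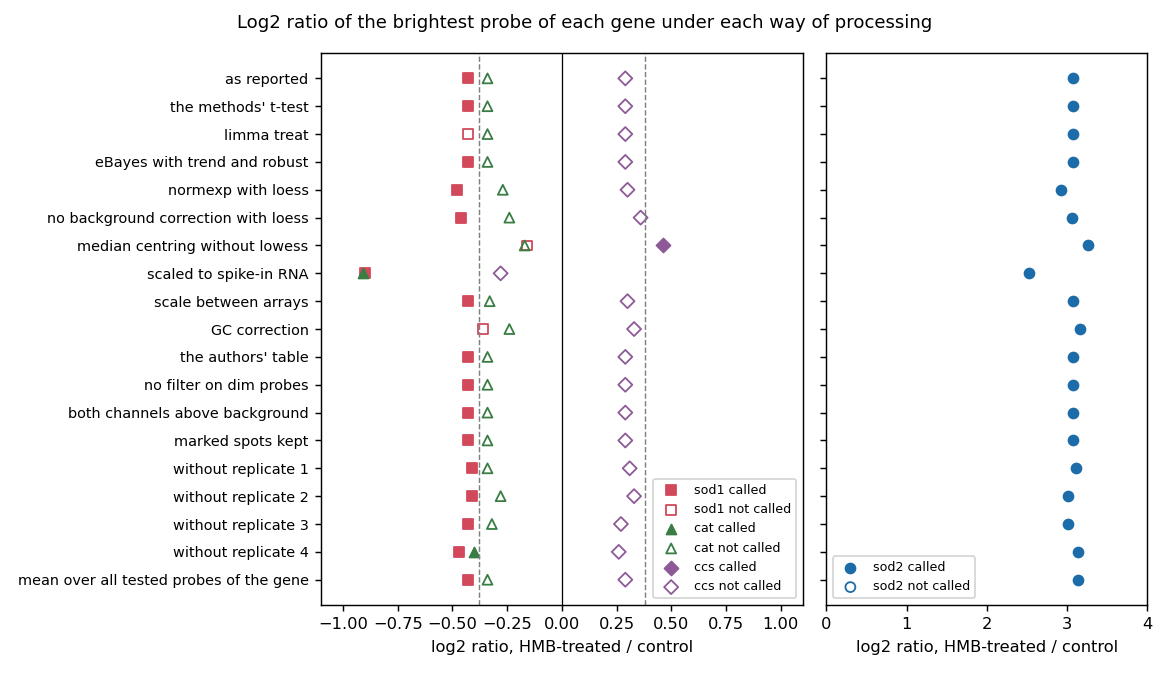
Log2 ratio of HMB-treated over control cells for the brightest probe of *sod1*, *cat* and *ccs* (left) and *sod2* (right) as reported and under each of 18 alternatives; filled markers were called, open markers were not, and dashed lines mark the FC of 1.3. All *sod2* markers are filled and lie between 2.52 and 3.26, and the spike-in scaling moves all 4 genes to the left.

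Genes that handle the peroxide formed by the dismutases had no call in the reported fit. Of 12 listed peroxiredoxins and glutathione peroxidases, 9 were tested, and 0 were called by limma, 0 by limma's treat and 0 by the methods' t-test, although 4 had an unadjusted p below 0.05. With median centering 2 were called, and with the spike-in scaling 6. Their ratios ran from -0.29 to 0.31 with a median of 0.01. The median over the brightest probe of all 8605 tested symbols was -0.09, with 27.4% called, 10.2% as higher and 17.2% as lower. At the upper end of the range was *gpx1*, a glutathione peroxidase, with 0.31 ± 0.11 (SD, n = 4, limma, adjusted p = 0.0121). At the lower end was *prdx3*, a mitochondrial peroxiredoxin, with -0.29 ± 0.14 (SD, n = 4, limma, adjusted p = 0.0204). Both *sod2* and *prdx3* act in the mitochondrial matrix, with ratios of 3.07 and -0.29.

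Of 13 tested genes that supply thioredoxin and glutathione, 0 rose and 1 fell, with a median of -0.13. The one called was *txnrd3*, a thioredoxin reductase (-0.59 ± 0.12, SD, n = 4; limma, adjusted p = 0.00119). The call of *txnrd3* was lost with treat (adjusted p = 0.0928) and with normexp background correction (-0.35). Glutamate cysteine ligase, the first enzyme of glutathione synthesis, had -0.30 ± 0.24 for its catalytic subunit *gclc* and -0.17 ± 0.32 for *gclm* (SD, n = 4), and neither was called. Without array 2 *gclc* was called (-0.39), as it was with the spike-in scaling (-1.08).

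Among 8 tested genes of copper handling, which is needed for the *sod1* enzyme, 1 rose and 0 fell, with a median of 0.04. The metallochaperone *atox1* had 0.40 ± 0.15 (SD, n = 4; limma, adjusted p = 0.00748), and the call was lost without array 2 (0.34), without array 3 (0.38) and with treat (adjusted p = 1). With the spike-in scaling its ratio was -0.13 and was not called. The copper importer *slc31a1* had 0.24 ± 0.17 (SD, n = 4) on its brightest probe, which was not called, while 1 of its 3 tested probes was, with ratios from 0.14 to 0.42 over the probes. The mitochondrial copper chaperone *sco2* had -0.36 ± 0.13 (SD, n = 4) and was not called, but it was in 3 of 18 ways of processing, namely without array 2 (-0.39), without array 4 (-0.40) and with the spike-in scaling (-0.97).

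Genes of manganese handling held the largest differences among these lists. Of 6 tested, 2 rose and 1 fell, with a median of 0.08. The metal importer *slc39a14*, which carries zinc, iron and manganese, had 1.84, 2.09, 2.08 and 1.58 on the arrays, a mean of 1.90 ± 0.24 (SD, n = 4; limma, adjusted p = 4.54e-05). The divalent metal transporter *slc11a2* had 1.09 ± 0.11, and *atp2c1*, the calcium and manganese pump of the Golgi, had -0.84 ± 0.04 (SD, n = 4; limma, adjusted p = 8.85e-05 and 0.00014). These 3 genes were called under each of 18 ways of processing, the reported one included.

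Of 20 tested genes of peroxisome import and peroxisomal oxidases, the compartment of catalase, 1 rose and 1 fell, with a median of -0.12. The thiolase *acaa1* had 0.47 ± 0.11 and *hsd17b4*, the multifunctional enzyme of the same pathway of fatty acid breakdown, had -0.50 ± 0.11 (SD, n = 4; limma, adjusted p = 0.00259 and 0.00204). Both were called in 16 of 18 ways of processing, and the sign of *acaa1* turned with the spike-in scaling (-0.07).

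**Figure D5:**
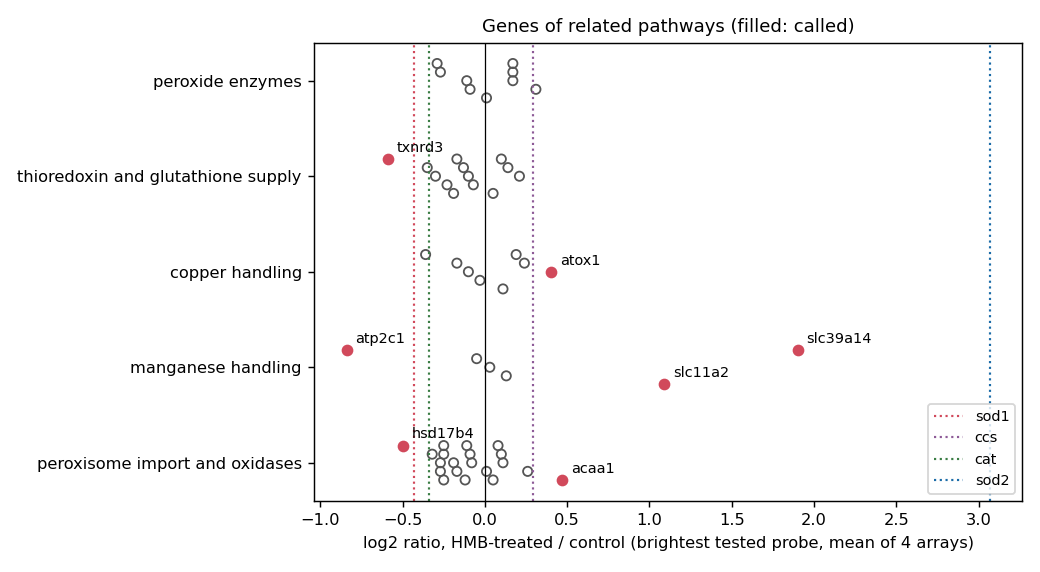
Log2 ratio of HMB-treated over control cells (brightest tested probe, mean of 4 arrays) for genes of 5 related lists, filled where called, with dotted lines at the ratios of *sod1*, *cat*, *ccs* and *sod2*. Of 56 genes 7 are filled, and *slc39a14* at 1.90 is nearest to the line of *sod2*.

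The genes whose pattern was most like that of each called member were found among 2360 called symbols by the root mean square difference of the 4 log2 ratios. For *sod2* these were *oas2* (difference 0.074, mean ratio 3.09), *ifi35* (0.086, 3.1) and *isg15* (0.15, 3.13), all known as interferon-stimulated genes, and 12 symbols lay within 0.25. For *sod1* they were *aak1* (0.038, -0.45), *ctnnbip1* (0.039, -0.44) and *c28h12orf73* (0.043, -0.43), and 726 symbols lay within 0.25. These counts largely follow from the size of each ratio, since few called symbols lie near that of *sod2* and many near that of *sod1*. The difference also mixes the mean ratio with its course over the arrays, so likeness here is mainly likeness in size.

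The myogenic markers *acta1*, *des*, *myf5*, *myh3*, *myod1*, *myog* and *ncam1* were all well above background in both groups. Of these 7 markers, 5 fell and 0 rose (median -1.13), and their summed signal was 165000 to 186000 in control and 62400 to 99400 in HMB-treated cells. Of 5 fibroblast markers, 4 rose and 0 fell (median 0.76), with summed signals of 284000 to 345000 and 274000 to 427000. Of the 5 endothelial and 4 adipocyte markers on the array, 0 were well above background on all 4 arrays in either channel, and of 4 leukocyte markers *cd14* and *cd68* were. Of these, 1 rose and 0 fell (ratios of 0.20 and 0.88, median 0.54), with sums of 3650 to 4390 and 4130 to 6170. Whether these shifts have a part in the ratios of *sod2* and *sod1* was not tested. In bulk RNA, fewer cells of a type and less RNA per cell cannot be told apart. The 4 arrays resembled each other, with pairwise correlations of the ratios over probes from 0.837 to 0.92.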

How the data were processed

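The members and the lists of related genes were chosen with earlier results of these data known. For each array, the authors deposited Agilent Feature Extraction output (version 10.10.1.1 and build EquCab1, per the file headers), which holds intensity values of both channels after background subtraction and linear and lowess normalization. The deposited log10 ratios of Cy5 over Cy3 were turned into log2 ratios, with no normalization between arrays added. The signals behind the bounds of the opposite-strand *sod2* probes were quantile-normalized between arrays by their mean intensity. The same log10 ratios, taken from the authors' series table, served as an alternative. The number of arrays limits the precision.

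Control spots and spots marked as outliers were left out. A probe was tested when at least 1 channel exceeded background well on all 4 arrays and at least 3 ratios were unmarked. The test was limma 3.58.1 in R 4.3.3 (intercept, empirical Bayes), with Benjamini-Hochberg adjustment over 24669 probes, a threshold of 0.05 and an FC of 1.3. A gene with several probes was represented by its brightest tested probe, and all probes of *sod2* are given. The script was tested on simulated data. Named genes were all members, the 3 symbols closest to each called member and the called genes of each list; other genes, *prdx3*, *gpx1*, *gclc*, *gclm*, *slc31a1* and *sco2*, were named after their values had been seen. The gene *ccs* was matched through RefSeq names (other build, no coordinates used). The alternatives were the methods' t-test, treat, trend and robust moderation, normexp (offset 50) with loess, uncorrected background with loess, median centering without lowess, scaling to 10 spike-in transcripts without lowess, scaling between arrays, GC correction, the authors' table, 3 other filters, a mean of all probes per gene, and each replicate left out. Each array pairs both groups, and the test on its ratio is a paired one. One probe sequence is not reported here.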

Additional observations from a re-analysis of the deposited data

Results flagged for a closer look

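Among 77 probes of the members and of the related lists, each with 4 arrays, 1 had an array far from the other 3, where chance gives about 1 in 20 groups. This was the probe A_69_P093746 of *paox*, the peroxisomal polyamine oxidase, whose reaction gives off hydrogen peroxide. Its log2 ratio was 0.44 on array 1 and between -0.01 and 0.01 on the other arrays, and it was not called.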

How the results depend on the processing

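The call of *sod2* and its direction held under 18 of 18 alternatives, some of which could not change the ratio. By contrast, *sod1* was not called with treat (-0.43), median centering (-0.16) and the GC correction (-0.36), and the cause was not tested. With median centering *ccs* was called (0.46), and with the spike-in scaling, which like median centering omits lowess, it turned to -0.28 while *cat* was called (-0.91). All tested probes gave 7046 calls (2996 higher, 4050 lower), 2822 with treat (1542 and 1280), 3539 with normexp (1945 and 1594), 4440 without background correction (2669 and 1771), 20262 with the spike-in scaling (984 and 19278), 7628 with median centering (4823 and 2805) and 6716 with the GC correction (3750 and 2966). Calls in the lists of related genes, 7 as reported, were 3 with treat and 50 with the spike-in scaling. When each replicate was left out in turn, the ratios ranged from -0.47 to -0.41 for *sod1*, 3.01 to 3.14 for *sod2*, -0.40 to -0.28 for *cat* and 0.26 to 0.33 for *ccs*. The calls ranged from 11 to 12 for the member probes, 6663 to 7366 for all probes and 6 to 9 for the lists. The ratio within each array already pairs both groups, so no further block was fitted. The 5 opposite-strand *sod2* probes were limited by a control signal not well above background.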
